A study of Mus musculus with 10 samples.

Results

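The 10 genes described here are those used to sort or recognize hematopoietic stem cells (HSCs) at the cell surface, together with marker genes of the same cells: Kit, Ly6a, Slamf1, Cd48, Procr, Esam, Cd34, Flt3, Fgd5 and Pdzk1ip1. They were chosen by name, and all 10 were found among the 17404 genes of the count table and among the 16725 genes that passed the filter of 11 counts in total. The libraries are bulk RNA-seq of long-term HSCs (LT-HSCs) sorted from mouse fetal liver at E14.5, 6 from KO embryos (Tnfrsf11aCre; Spi1f/f) and 4 from WT embryos (Tnfrsf11a+/+; Spi1f/f). Both groups carry the floxed Spi1 alleles and are littermates. The KO embryos also carry Cre recombinase at the Tnfrsf11a locus, which is active in macrophage precursors, so that Spi1, which encodes the myeloid transcription factor PU.1, is lost from macrophages and fetal liver macrophages are depleted. The sorted cells are thus meant to be stem cells with intact Spi1 from livers with and without macrophages, and the comparison asks whether the stem cells differ. The question put to these genes is whether each library carries the identity its sort gate defines, and whether that identity differs between KO and WT.

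Stem cells are purified by what they show on their surface. Kit, the receptor for stem cell factor, and Sca-1, the product of Ly6a, mark stem and progenitor cells that lack lineage markers. Within these cells the SLAM family receptors separate stem cells, which carry CD150 (Slamf1) and lack CD48, from progenitors, which carry CD48. The gate of the study was lineage negative, c-Kit positive, Sca-1 positive, CD150 positive and CD48 negative, so 3 of the genes encode proteins selected for and Cd48 encodes a protein selected against. Procr (the endothelial protein C receptor), Esam (an adhesion molecule of endothelial and stem cells), Fgd5 (a guanine nucleotide exchange factor for Cdc42) and Pdzk1ip1 (a small membrane protein also called MAP17) are stem cell markers that the gate did not use. Cd34 and Flt3 (CD135) are carried by many progenitors, and fetal stem cells, unlike most adult ones, carry CD34. Endothelial cells, which line the sinusoids of the fetal liver, also transcribe Esam, Procr, Cd34 and Fgd5.

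Kit and Cd34 make proteins in 2 forms that the transcript tables tell apart, and the stretches where the proteins part are shown. The forms also differ elsewhere in their transcripts, Kit-204 having 39 bases that Kit-201 lacks and Cd34-201 having 56 that Cd34-202 lacks, and reads on these bear on the assignment too. Kit (chr5:75574916-75656722, plus strand, GRCm38) has 8 annotated transcripts, of which Kit-201 encodes 979 residues and Kit-204 encodes 975. They differ by the 12 coding bases at chr5:75639147-75639158, an insert in the part of the receptor outside the cell and close to the membrane. The capitals mark the insert, with 15 bases of the transcript on either side.

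Kit-201: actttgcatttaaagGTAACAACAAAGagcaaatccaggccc
Kit-204: actttgcatttaaagagcaaatccaggccc

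Cd34 (chr1:194938819-194961279, plus strand) encodes a sialomucin with a long or a short cytoplasmic tail. Cd34-202 includes a 156-base exon at chr1:194959780-194959935 that ends the reading frame after 12 coding bases and gives 325 residues, and Cd34-201 skips this exon and gives 382 residues. The capitals mark the first 15 bases of the exon, up to and including the stop codon.

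Cd34-202: acaggagaaaggctgGAGCTGGAACCTTGA
Cd34-201: acaggagaaaggctgggtgaagacccttat

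Promoters of 8 of the 10 genes were in the RefSeq table (GRCm38.p6), which gives 250 bases before and 50 bases after the start of transcription. Those of Kit (chr5:75574737-75575036), Slamf1 (chr1:171766882-171767181) and Cd34 (chr1:194938571-194938870), all on the plus strand, are shown because Kit and Slamf1 define the gate and Cd34 was the member that passed the test below. Capitals mark GATAA, the core of sites bound by GATA factors, and GGAAG, a core of sites bound by ETS factors such as PU.1, each on either strand (CTTCC is GGAAG on the opposite strand).

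Kit: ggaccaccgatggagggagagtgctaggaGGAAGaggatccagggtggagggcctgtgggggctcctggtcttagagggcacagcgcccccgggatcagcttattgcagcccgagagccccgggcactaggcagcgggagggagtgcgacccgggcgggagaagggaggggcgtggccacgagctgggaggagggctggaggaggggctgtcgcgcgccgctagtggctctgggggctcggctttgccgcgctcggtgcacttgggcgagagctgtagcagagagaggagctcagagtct
Slamf1: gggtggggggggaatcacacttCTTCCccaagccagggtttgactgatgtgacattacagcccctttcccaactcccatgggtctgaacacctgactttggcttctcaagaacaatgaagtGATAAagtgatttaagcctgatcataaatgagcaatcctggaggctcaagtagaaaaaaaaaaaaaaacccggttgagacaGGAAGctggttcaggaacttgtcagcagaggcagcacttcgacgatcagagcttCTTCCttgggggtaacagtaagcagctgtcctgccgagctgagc
Cd34: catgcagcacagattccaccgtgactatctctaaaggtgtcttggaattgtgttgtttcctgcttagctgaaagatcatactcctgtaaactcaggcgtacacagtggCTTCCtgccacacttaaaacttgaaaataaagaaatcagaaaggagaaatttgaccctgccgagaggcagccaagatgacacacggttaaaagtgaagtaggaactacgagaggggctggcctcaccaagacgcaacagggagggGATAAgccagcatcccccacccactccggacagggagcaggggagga

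GATAA on either strand was in the promoters of Slamf1 and Cd34 among the 8, and 25.4% of the 32851 promoters in the table hold it. GGAAG was in all of the 8 but that of Pdzk1ip1, against 71.4% of all promoters. The Fgd5 promoter was the richest in G and C of the 8, with 71.3% GC and 37 CG dinucleotides, where the median of all promoters is 52.7% GC and 7 CG dinucleotides. Ly6a (chr15:74994877-74998031, minus strand) and Esam (chr9:37528078-37538319, plus strand) had no entry. Slamf1 (chr1:171767127-171801184) and Cd48 (chr1:171682009-171705258) lie near each other on the same strand in the cluster of SLAM family genes, and their exons do not overlap. Of the 10 genes, Cd34 alone shares exonic bases with another gene, 148 bases with the antisense gene Gm16897.

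The libraries held 5315435 to 30941726 counts in KO and 7633446 to 18256010 in WT. WT 15416 stood apart. Its 12 endothelial marker genes summed to 503 CPM (counts scaled to library size, with TMM normalization), where the other 3 WT libraries had 5571 to 7082 CPM and the 6 KO libraries 1964 to 10468 CPM. KO 15409 had the highest endothelial sum, and WT 15418 had the highest sum of erythroblast markers (6439 CPM) and of the neutrophil granule gene Mpo (1193 CPM). Spi1 was at 9.10 to 101 CPM in KO and 6.22 to 50.1 CPM in WT, and these values check no label, since Cre is not expected to act in the stem cells. Replicate numbers such as 15416 are those of the labels. Where leaving out 1 library moved a member's log2 fold change by more than 1.5 times or turned it, the value without it is given. In bulk RNA a change in the number of cells of a type cannot be told apart from a change in RNA per cell.

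Every library carried reads of all 10 genes, the smallest count being 4. Compared per length, in TPM (counts scaled to transcript length and library size), Esam was the highest of the 10, with 335 ± 125 TPM in KO (SD, n = 6) and 158 ± 110 TPM in WT (SD, n = 4). Cd34 followed in KO with 114 ± 36.1 TPM, and stood at 44.1 ± 20.2 TPM in WT. Over all 10 libraries the mean levels then ran Ly6a, Kit, Pdzk1ip1, Fgd5, Procr, Slamf1, Flt3 and Cd48, from 61.0 TPM for Ly6a to 3.17 TPM for Cd48. Esam was above Cd34 in 10 of 10 libraries. Fgd5 was above Procr, Procr above Slamf1 and Slamf1 above Flt3 in 9 of 10 each. The order of the other neighbours varied between libraries, with Cd34 above Ly6a and Kit above Pdzk1ip1 in 7 of 10, Pdzk1ip1 above Fgd5 in 6 of 10, and Ly6a above Kit and Flt3 above Cd48 in 5 of 10. In CPM, which is not divided by length, Kit was ahead of Ly6a in mean level.

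**Figure D1:**
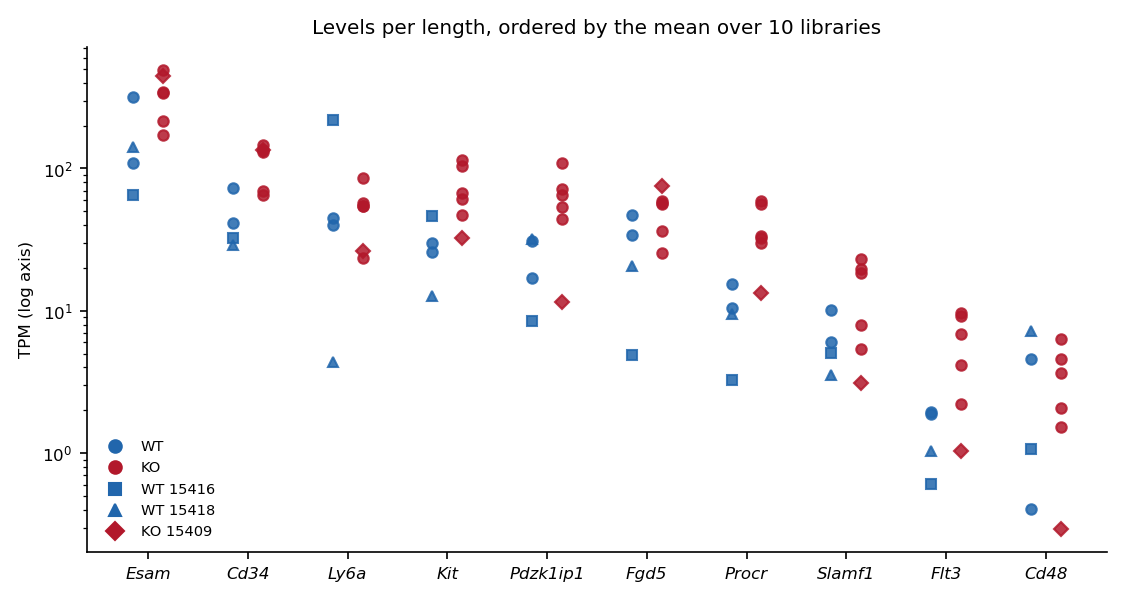
TPM (log axis) of each gene in each library, with the genes ordered by their mean over the 10 libraries; blue symbols are WT and red symbols KO, and the square, triangle and diamond mark WT 15416, WT 15418 and KO 15409. Esam is at the top and Cd48 and Flt3 are at the bottom, and Ly6a spans from 4.38 to 218 TPM within WT.

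In TPM summed over the transcripts of each gene, the pair of genes behind the SLAM gate kept the order of the gate in 9 of 10 libraries. Slamf1 was at 3.12 to 23.1 TPM in KO and 3.52 to 10.2 TPM in WT, and Cd48 at 0.291 to 6.37 TPM in KO and 0.408 to 7.18 TPM in WT. The ratio of Slamf1 to Cd48 was 1.17 to 12.1 in KO. In WT it was 4.70 in WT 15416, 2.22 in WT 15417, 0.491 in WT 15418 and 14.8 in WT 15420, so that Cd48 was above Slamf1 in WT 15418 alone. The Slamf1 values include Slamf1-202, a retained-intron transcript described below, and the order was not examined for the coding transcript alone. In KO 15406, where the ratio was 1.17, Slamf1-202 took 47.7% of the Slamf1 counts. Slamf1 itself was not a high transcript, and Cd84, a SLAM family gene that the gate did not use, was at 28.6 to 88.3 CPM in KO against 9.86 to 76.9 CPM for Slamf1.

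Of the genes behind the lineage antibodies, Cd3e had no count in any library, and Ly6g, the neutrophil antigen Gr-1, had counts only in KO 15412 and KO 15415 (100 and 15). Ly6c1, whose product the Gr-1 antibody can also bind, was at 282 CPM in WT 15416 and 0.592 to 18.4 CPM in the other WT libraries. None of the 7 lineage genes tested was called between KO and WT, and their sum was 32.1 to 393 CPM in KO and 46.8 to 953 CPM in WT.

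Genes listed as endothelial markers were present beside the genes of the gate. Stab1 and Stab2, scavenger receptors of sinusoidal endothelium, were each above Kit per length in 9 of 10 libraries, and Egfl7 in 10 of 10, and the other 9 endothelial markers in 5 to 8 of 10. Stab2 was at 456 TPM on average in KO and 243 TPM in WT, against 71.5 and 28.8 TPM for Kit. None of the 12 endothelial genes was at 0 in any library, and together they took 0.192% to 1.08% of counts in KO and 0.0468% to 0.716% in WT, while the 10 surface marker genes took 0.117% to 0.180% in KO and 0.0613% to 0.115% in WT. The libraries thus held transcripts of the gate genes together with those of the endothelial markers. Whether the endothelial marker transcripts came from endothelial cells or from the sorted stem cells was not tested.

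The 10 genes did not move with the endothelial sum alike. Esam and Fgd5 were lowest in WT 15416, the library poorest in endothelial markers, with 139 and 16.6 CPM, and Ly6a was highest there, with 207 CPM. In KO, Esam was highest in KO 15405 and next highest in KO 15409 (733 and 691 CPM), the libraries with the highest endothelial sums in that group, and Fgd5 was highest in KO 15409 (174 CPM). Slamf1, Cd48, Procr, Flt3, Kit and Pdzk1ip1 were all at their lowest KO level in KO 15409. Over the 10 libraries, which share their depth and composition with the sum, the correlation of log2 CPM with the log2 endothelial sum was 0.94 for Fgd5 (Spearman 0.71) and 0.83 for Esam (Spearman 0.72), and -0.78 for Ly6a (Spearman -0.81). Without WT 15416 and KO 15415, the libraries farthest from the median, these were 0.46, 0.48 and -0.30, so these relations rest largely on these 2 libraries. With the same 2 left out, other correlations turned negative, Pdzk1ip1 from 0.17 to -0.87, Procr from 0.43 to -0.68 and Flt3 from 0.36 to -0.61. That of Slamf1 went from -0.33 to -0.64. The part of endothelial RNA in the level of each gene was not tested.

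**Figure D2:**
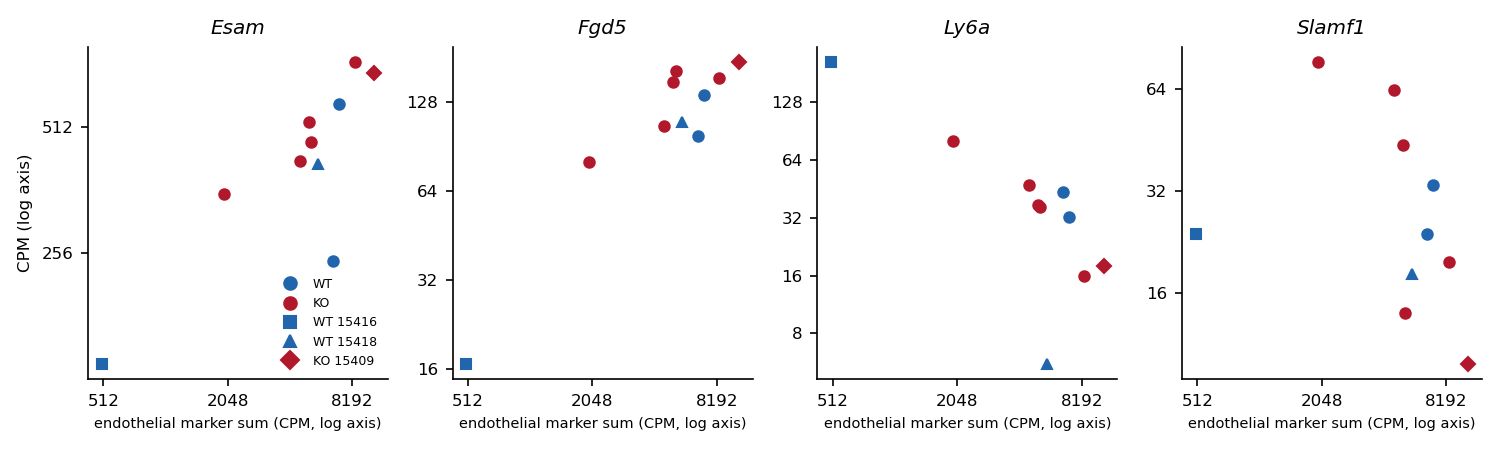
CPM of Esam, Fgd5, Ly6a and Slamf1 against the summed CPM of 12 endothelial markers in each library (both axes log); blue is WT, red is KO, and the square, triangle and diamond mark WT 15416, WT 15418 and KO 15409. WT 15416 sits at the far left at 503 CPM, with the lowest Esam and Fgd5 and the highest Ly6a.

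Cd34 was higher in KO and was the member called between the groups. It was at 179 CPM in the lowest, 277 CPM at the median and 288 CPM in the highest KO library, and at 95.6, 186, 118 and 125 CPM in the WT libraries 15416, 15417, 15418 and 15420. Of the 6 KO libraries, 5 were above every WT library, and KO 15412 was below WT 15417, so the groups overlapped. The means were 250 ± 48.7 CPM in KO (SD, n = 6) and 131 ± 38.5 CPM in WT (SD, n = 4). The log2 fold change was 0.93 ± 0.23 (SE), with an adjusted p of 0.0824 in the quasi-likelihood test of edgeR, adjusted by Benjamini-Hochberg over all genes tested, the threshold being 0.1. In all, 1 of the 10 genes was called higher and 0 were called lower, where 1.32% of all genes tested were called higher and 2.67% lower. The call did not hold when any of 7 single libraries was left out (KO 15405, 15406, 15411, 15412 or 15415, or WT 15416 or 15418), with log2 fold changes of 0.81 to 1.15 over the 10 fits with a library left out.

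**Figure D3:**
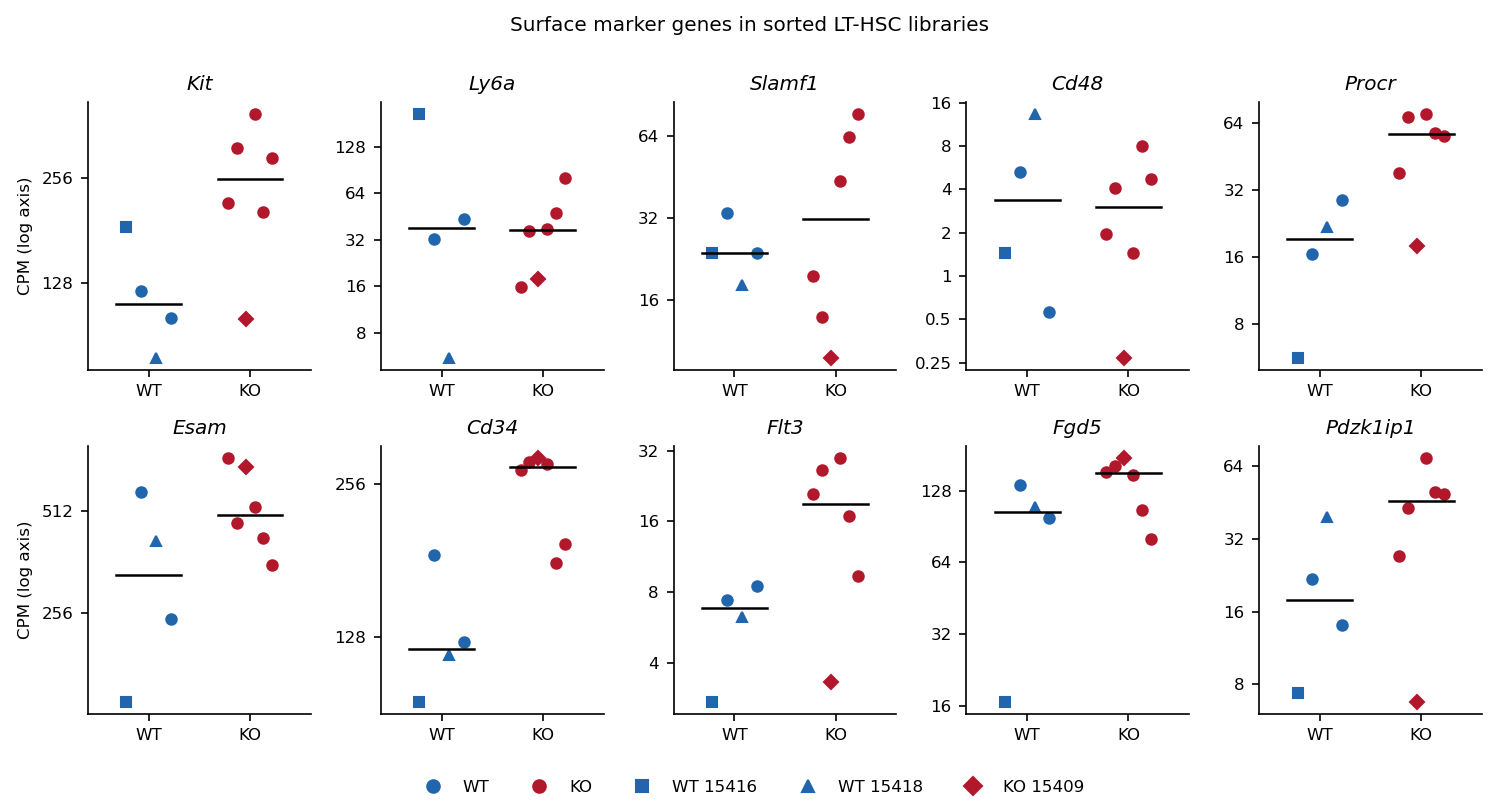
CPM (log axis) of the 10 genes in each library; blue symbols are WT, red symbols KO, the square, triangle and diamond mark WT 15416, WT 15418 and KO 15409, and horizontal lines are group medians. In Kit, Procr, Cd34 and Flt3, 5 of 6 KO libraries lie above every WT library.

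Kit, Procr and Flt3 had the same pattern of 5 KO libraries above every WT library, but did not pass the threshold. Kit was at 101, 254 and 389 CPM in the lowest, median and highest KO libraries and at 184, 121, 78.2 and 101 CPM in the WT libraries 15416, 15417, 15418 and 15420. KO 15409 was the low KO library, and the log2 fold change was 1.05 ± 0.35 (SE), with an adjusted p of 0.139 in edgeR's test. Procr was at 17.9, 56.7 and 69.7 CPM in KO, lowest, median and highest, and at 5.69, 16.6, 21.9 and 28.7 CPM in WT. Its KO library 15409 again lay within the WT range, and the log2 fold change was 1.49 ± 0.46 (SE), with an adjusted p of 0.117 in edgeR's test. Flt3, whose product is a cytokine receptor of multipotent and lymphoid-primed progenitors, was at 3.30, 19.0 and 29.7 CPM in KO, lowest, median and highest, and 2.73, 7.36, 6.29 and 8.49 CPM in WT. The log2 fold change of Flt3 was 1.52 ± 0.57 (SE), with an adjusted p of 0.180 in edgeR's test. Together with Cd34, these were the 4 genes of the 10 with an unadjusted p below 0.05 and a higher level in KO, where 8.6% of all genes tested had one, and 0 of the 10 had an unadjusted p below 0.05 and a lower level, against 10.2% of all genes.

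Without KO 15409, Kit, Procr, Flt3 and Cd34 were all called, with log2 fold changes of 1.22, 1.67, 1.74 and 0.89. The number of genes called over the whole table went from 667 to 1003, with 405 of 16602 genes tested called higher and 598 lower. DESeq2 with the study's settings called Cd34 and Procr higher and none of the 10 lower, where it called 3.5% of genes higher and 3.29% lower. In a fit with the endothelial sum as a covariate, chosen after seeing the data, Cd34 had a log2 fold change of 0.83 and Kit of 1.25, both called. That fit called 292 of 16725 genes higher and 417 lower.

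Ly6a and Cd48 had the widest spread of the 10 and no direction that held. Ly6a was at 15.8, 36.9 and 80.1 CPM in KO, lowest, median and highest, and at 207, 32.3, 5.55 and 43.7 CPM in the WT libraries 15416, 15417, 15418 and 15420, a 37.3-fold range within WT. WT 15416 was above and WT 15418 below every KO library. The log2 fold change was -0.88, with a 95% confidence interval of -2.54 to 0.78 and an adjusted p of 0.577 in edgeR's test, and it was 0.53 without WT 15416. Cd48 was at 0.271, 3.03 and 8.01 CPM in KO and at 1.44, 5.32, 13.3 and 0.566 CPM in WT, which is 5 to 259 deposited counts in KO and 4 to 180 in WT. Its highest and lowest WT libraries were WT 15418 and WT 15420. The log2 fold change was -0.60, with a confidence interval of -2.58 to 1.38 and an adjusted p of 0.779 in edgeR's test. Without WT 15418 it was 0.50 and without KO 15409 -0.35. It was -1.06 without KO 15412, -0.97 without WT 15420 and -0.91 without WT 15416, the others ranging from -0.71 to -0.44.

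Slamf1, Esam, Fgd5 and Pdzk1ip1 had positive log2 fold changes whose confidence intervals include 0. Slamf1 was at 9.86, 31.7 and 76.9 CPM in KO and at 23.8, 33.4, 18.2 and 23.9 CPM in WT, so that the KO libraries lay on both sides of the WT range, 3 above and 2 below. Its log2 fold change was 0.62 (-0.54 to 1.77) and 0.28 without KO 15415, and in a fit that included Xist, a transcript of female cells, it was -0.68. Slamf1 was highest in the KO libraries 15411, 15412 and 15415 (43.8, 63.6 and 76.9 CPM), which were also the highest for the 6 megakaryocyte markers, with sums of 2264 to 3201 CPM against 158 to 1129 CPM in the other libraries. CD150 is also carried by megakaryocyte progenitors of adult bone marrow. In imaging of E14.5 fetal liver sections, the study saw no CD41 protein, a megakaryocyte marker, on CD150 positive cells. The part of megakaryocyte RNA in Slamf1 was not tested here. None of the megakaryocyte markers was called, with log2 fold changes of 0.84 to 1.21.

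Esam was at 355, 499 and 733 CPM in KO and at 139, 582, 417 and 245 CPM in WT, with a log2 fold change of 0.63 (-0.13 to 1.38), which was 0.36 without WT 15416 and 0.998 without WT 15417. Fgd5 was at 80.2, 151 and 174 CPM in KO and at 16.6, 135, 109 and 98.5 CPM in WT, with a log2 fold change of 0.61 (-0.34 to 1.57), and 0.27 without WT 15416. Pdzk1ip1 was at 6.77, 46.1 and 69.0 CPM in KO and at 7.36, 21.8, 39.6 and 14.0 CPM in WT, with a log2 fold change of 0.98 (-0.26 to 2.22), and 1.55 without WT 15418. In all 3, at least 2 KO libraries lay above every WT library, but the groups overlapped. No gene of the 10 had KO and WT libraries that did not overlap, where every KO library was above every WT library in 2.88% of genes and below in 3.48%. The log2 fold change was positive in 8 of the 10 genes with a median of 0.78, where it was positive in 53.1% of all genes tested, with a median of 0.06.

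**Figure D4:**
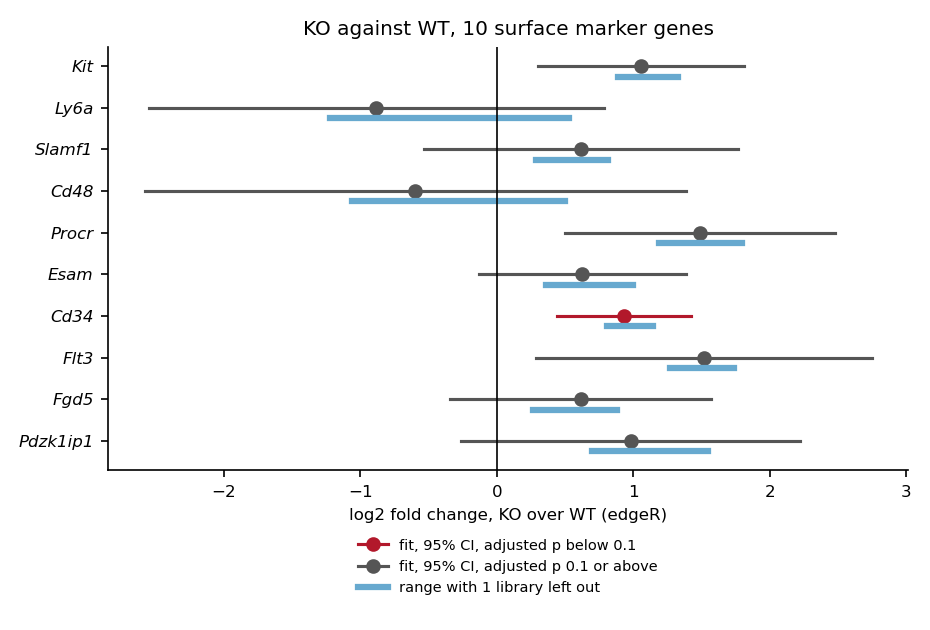
Log2 fold change of KO over WT for the 10 genes in edgeR; points are estimates, horizontal lines 95% confidence intervals, red where the adjusted p was below 0.1, and light blue bars the range of estimates with 1 library left out. Cd34 is the red point at 0.93, and the bars of Ly6a and Cd48 cross 0.

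The transcript estimates add which parts of each gene were read. Kallisto assigned much of Kit to Kit-208, a retained-intron transcript of 3175 bases that overlaps Kit-201 in bases 2465 to 5186 of its 5214, the 3' part of the message. Kit-208 shares 2722 bases with Kit-201 and has 453 of its own, and reads on shared bases do not tell the forms apart. Kit-208 took 33.7% to 65.3% of the estimated Kit counts in KO. It took 83.9% in WT 15416, 50.8% in WT 15417, 49.4% in WT 15418 and 96.0% in WT 15420. As a share of the TPM of Kit the means were 51.9% ± 11.7 in KO (SD, n = 6) and 76.9% ± 19.0 in WT (SD, n = 4), a difference of -25.0 percentage points (two-sided exact permutation test over 210 splits, p = 0.0238; Benjamini-Hochberg adjusted over 8 genes, 0.152). The difference did not pass the threshold of 0.1 after adjustment.

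Read as TPM of the coding forms alone, Kit-201 and Kit-204 together were at 7.56 to 53.0 TPM in KO and at 4.67, 11.1, 4.48 and 0.604 TPM in WT, with KO 15409 again inside the WT range. The ratio of the group means was 5.78 for the coding forms, against 2.48 for the TPM of the whole gene. With 1 library left out the first ratio was 4.46 to 9.26, the highest being without WT 15417, and the second 2.09 to 3.11. These ratios were computed after the shares had been seen and were not tested. The TPM of the coding forms rests on how Kallisto divided the reads on bases shared with Kit-208. The first ratio is therefore not a measured change of coding Kit. WT 15420, with 717 Kit counts, had no estimated count on Kit-201 and 27.5 on Kit-204. Among the coding forms, Kit-204, which lacks the insert shown above, made up 39.5% to 47.1% in 5 KO libraries and almost none in KO 15409, and 12.4% to 100% in WT, the highest being WT 15420 and resting on its 27.5 counts.

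**Figure D5:**
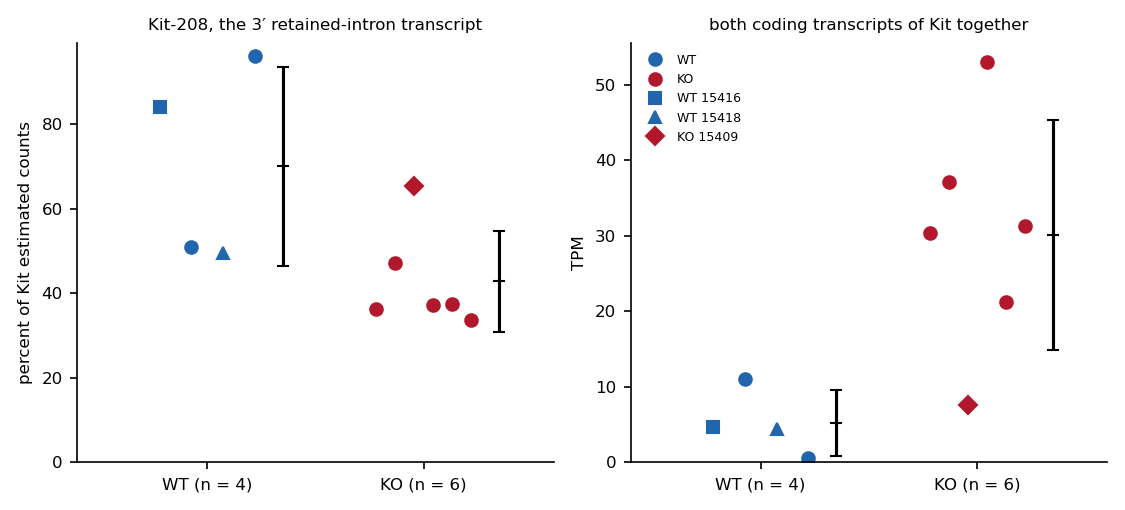
Share of the estimated Kit counts on Kit-208 (left) and TPM of Kit-201 and Kit-204 together (right) in each library; blue is WT, red is KO, the square, triangle and diamond mark WT 15416, WT 15418 and KO 15409, and black marks are group means ± SD. Kit-208 is at 42.9% ± 11.9 in KO and 70.0% ± 23.5 in WT, and the coding forms are at 30.1 ± 15.2 TPM in KO and 5.21 ± 4.35 TPM in WT.

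A share of this kind was not particular to Kit. Fgd5-204, a retained-intron transcript of 2294 bases with bases 3401 to 5621 of the 5621 bases of Fgd5-202, took 42.2% to 76.0% of Fgd5 counts in KO and 50.8% to 92.1% in WT, highest in WT 15420 as for Kit-208. Only 73 bases of Fgd5-204 are not in Fgd5-202. Slamf1-202, which differs in holding intronic sequence beyond the shared bases 29 to 985 of Slamf1-201, took 13.4% to 69.2% in KO and 39.6% to 83.4% in WT. Its highest share in KO was in KO 15409, as for Kit-208, and its highest share in WT was in WT 15416.

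Procr-201 fell short of the threshold as well. It made up 76.8% ± 5.50 of Procr TPM in KO (SD, n = 6) and 89.1% ± 10.8 in WT (SD, n = 4; two-sided exact permutation test, p = 0.0381, adjusted 0.152). The rest was mostly Procr-203, a transcript without an annotated reading frame, at 11.1% to 24.3% of counts in KO and at 0%, 0%, 13.8% and 5.75% in WT. Cd34 was close to evenly split between its forms, and the short-tailed Cd34-202 made up 43.5% to 58.5% of both in KO and 35.4%, 40.3%, 60.2% and 43.3% in WT. Cd34-201 was at 55.8 ± 18.2 TPM in KO (SD, n = 6) and 25.2 ± 13.6 TPM in WT (SD, n = 4), and Cd34-202 at 56.2 ± 20.6 and 18.5 ± 7.23 TPM; these levels were not tested. The share of Cd34-201 in Cd34 TPM had an adjusted p of 0.362 in the exact permutation test. For Ly6a, Slamf1, Flt3, Fgd5 and Pdzk1ip1 the adjusted p of the exact permutation test was 0.362 to 0.762, and Cd48 and Esam had a single transcript above 5% and were not tested.

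Related genes place these results. Among 16 further stem cell markers, 2 were called higher and 0 lower, and 14 had positive log2 fold changes with a median of 0.74, beside 1.32% called higher, 53.1% positive and a median of 0.06 over all genes tested. Without WT 15416 none of the 16 was called, 12 were positive and the median was 0.39. Those called were Mecom, a transcription factor of stem cell maintenance, at 47.2 to 201 CPM in KO and 9.78 to 45.3 CPM in WT (log2 fold change 1.83 ± 0.46 SE, adjusted p = 0.0836 in edgeR's test), and Hlf, a transcription factor restricted to stem and early progenitor cells, at 13.7 to 142 CPM in KO and 17.7 to 32.8 CPM in WT (1.84 ± 0.49 SE, adjusted p = 0.0906 in edgeR's test). Without KO 15409 both were called, at 1.99 and 2.07. Mecom was also called without WT 15417 or WT 15420 (adjusted p = 0.0852 and 0.0965 in edgeR's test), but not with any other library left out. Hlf was called in no other fit with a library left out, with adjusted p of 0.109 to 0.209 in edgeR's test. Of the other SLAM family genes and adaptors, 0 of 8 were called, all with positive log2 fold changes of 0.35 to 2.17. Of these 8, 7 had 0 counts in at least 1 library, and without KO 15409, 15412 or 15415 only 7 were positive. Of 7 other genes of the progenitor panel, 0 were called. Of these, 6 had negative values with a median of -1.26, but without WT 15418 only 2 had negative values and the median was 1.52. The granule gene Mpo was at 1193 CPM in WT 15418, at 0.531 to 8.43 CPM in the other WT libraries and at 2.65 to 156 CPM in KO, and its log2 fold change went from -2.58 to 3.20 without WT 15418, with no call either way. Of 5 other receptors and ligands of the Kit and Flt3 family, 0 were called, and of 8 other Ly6 genes also 0. Of 14 paralogs and partners of Procr, Esam, Cd34, Fgd5 and Pdzk1ip1, 0 were called, with a median of 0.23.

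Marker lists of other cells moved as follows. Among 14 macrophage markers 1 was called lower and 0 higher, beside 2.67% and 1.32% of all genes tested. Of the 14, 11 had negative log2 fold changes and 3 positive ones. The gene called was Marco, a scavenger receptor of liver macrophages, with 0 counts in every KO library and 3.41 to 14.3 CPM in WT. It was at least 33.1-fold lower in KO against a floor of 3 counts per library (adjusted p = 0.0824 in edgeR's test). Marco was not called without WT 15416 (adjusted p = 0.165 in edgeR's test). Nor was it called without KO 15405, 15406, 15411, 15412 or 15415 (0.128 to 0.205). Among 7 erythroblast markers Epor, the erythropoietin receptor, was called lower (log2 fold change -0.999 ± 0.276 SE, adjusted p = 0.0937 in edgeR's test) and all 7 had negative values, with a median of -1.50. Without WT 15418 Epor was at -0.79 and not called, 4 of the 7 were positive and the median was 0.57. Epor was called without WT 15420, but not with any other library left out (adjusted p of 0.106 to 0.213 in edgeR's test). The erythroblast sum was 235 to 2270 CPM in KO and 224 to 6439 CPM in WT. None of 7 hepatoblast markers, 12 endothelial markers or 4 mast cell and basophil markers was called, with median log2 fold changes of 0.68 for the hepatoblast and 0.28 for the endothelial markers. Without WT 15418 the hepatoblast median was 2.77, and without WT 15416 the endothelial median was -0.07. The hepatoblast sum was 89.8 to 8517 CPM in KO and 256 to 5865 CPM in WT.

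The genes whose levels followed each member most closely over the 10 libraries were found among 10358 genes with at least 10 counts in every library, by the Pearson correlation of log2 CPM, as a description with no test. For Kit they were Ccnd2, Slc38a1 and Pik3ip1 (0.948 to 0.937), and for Slamf1 they were Gp1ba, F5 and Tsc22d1 (0.954 to 0.932). For Procr they were Dock2, Irf2 and Pglyrp2 (0.991 to 0.980), for Flt3 BC029722, Cep85 and Arhgef6 (0.974 to 0.951), and for Pdzk1ip1 Irak3, Sash3 and Fmnl1 (0.958 to 0.957). For Esam they were Fli1, Pim3 and Msn (0.980 to 0.976), for Fgd5 Abi3, Calcrl and Slc44a2 (0.990 to 0.989), for Cd34 Dync1h1, Prrc2b and Ski (0.979 to 0.954), for Ly6a Islr, Klf9 and Far2 (0.956 to 0.922), and for Cd48 Dnaja4, Fam117a and Olfr552 (0.872 to 0.859). Among the 45 pairs of the 10 genes, the closest were Esam with Fgd5 (0.899), Procr with Flt3 (0.881) and Procr with Pdzk1ip1 (0.827), and the most opposed were Ly6a with Fgd5 (-0.703) and Ly6a with Esam (-0.684).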

How the data were processed

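LT-HSCs were sorted from E14.5 fetal livers, and libraries were made by SmartSeq2, sequenced as single-end reads, demultiplexed with bcl2fastq 2.20 and quantified by the authors with Kallisto 0.44.0 on Gencode vM16 (GRCm38, mm10). The authors deposited the estimated counts and the TPM of 133944 transcripts for each library, as Kallisto gave them. They also deposited 1 gene table of counts, the estimates summed by symbol and rounded, without normalization, and 97.5% of its values lay within 1 count of such sums. Positions and transcript types were taken from the vM21 annotation of GRCm38, which holds 99.6% of the transcripts.

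Genes reaching a sum of 11 counts over the libraries were tested with edgeR 4.0.16 in R 4.3.3 (TMM, glmQLFit with robust estimation, glmQLFTest), with Benjamini-Hochberg adjustment over all 16725 genes tested and the study's threshold of 0.1. On counts simulated with the spread of the real libraries (16286 genes tested), it called 73 of 100 genes changed by 2 on the log2 scale, 78 of 100 changed by 3 and 16 of 16086 unchanged genes; smaller changes, such as those of the members, were not simulated. CPM values are TMM-normalized, and log2 CPM for correlations used a prior count of 2. TPM was used to compare levels between genes and for transcript shares. A transcript share was tested for genes with at least 2 transcripts of a mean share of 5% or more, in libraries with at least 20 estimated counts. Confidence intervals are 95% intervals of the edgeR fit and take in the spread between libraries. The floor of 3 counts reflects counting alone, and the reads carry no molecular identifiers. P-values measure the spread between the libraries, which the study counts as embryos.

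The 10 members and the gene lists were chosen with earlier results of these data known. Named genes are the members, list genes (up to 4 per list by smallest p, and genes of the sort) and the 3 genes nearest to each member; Stab1, Stab2, Egfl7, Cd84, Mpo and Spi1 were named after their values were seen. Of the listed genes, Ncr1, Sh2d1b1, Dntt, Ly6d, Hba-a1, Hbb-bs, Hbb-bt and Fcer1a were not analysed here. Single values of 2 other listed genes are not reported here. DESeq2 1.42.0, other normalizations, filters, covariates and each library left out were tried as alternatives. Figures were drawn with matplotlib 3.10.9.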

Additional observations from a re-analysis of the deposited data

Results flagged for a closer look

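WT 15416 lay far from the other 3 WT libraries in 4 of the 26 quantities examined (the log2 CPM of each member, the log2 of summed gene lists and the shares of Kit-208 and Fgd5-204, in 52 groups). Dixon's test at the 95% level gives a flag by chance in about 1 of 20 groups. Fgd5 was at 4.06 log2 CPM in WT 15416, and the nearest WT library was at 6.62, a gap of 0.849 of the range of the group. The summed endothelial markers were at 8.98 on the log2 scale, with the nearest library at 12.4, and the summed macrophage markers at 6.73, with the nearest at 9.23. The macrophage sum rests largely on Mrc1, which was at 3.11 to 489 CPM in WT. Over all libraries that sum was highest in KO 15409 (926 CPM), which also had the highest endothelial sum. The summed Ly6 family was higher in WT 15416, at 9.59 against 7.12 in the nearest. These 4 sums and levels come from the same library and are not independent of each other, and their cause was not tested.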

How the results depend on the processing

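Between KO and WT 667 genes were called in all. The number was 0 at an adjusted p below 0.05, 1136 with DESeq2 and the study's fold threshold, 2143 with DESeq2 without it, 0 with Xist as a covariate and 0 with an offset for transcript length. With 1 library left out it ranged from 0 to 1003: it was 0 without KO 15405, 15406, 15412 or 15415 or WT 15416, 1 without KO 15411 and 1003 without KO 15409. Of the 10 members, 1 was called higher, and the number was 0 at an adjusted p below 0.05, 2 and 4 with DESeq2 with and without the fold threshold, 0 with Xist as a covariate, 0 with the length offset, and 0 to 4 with 1 library left out. It was 2 with the endothelial sum as a covariate (Cd34 and Kit) and 2 with WT 15416 and KO 15409 left out together (Kit, 1.49, and Procr, 1.37), both alternatives chosen after seeing the data. Over all genes, 292 of 16725 were called higher with the covariate and 262 of 16458 with both libraries left out. DESeq2 without the fold threshold called 998 of 16725 higher. No member was called lower in any of the 24 alternatives. The log2 fold change of Ly6a turned from -0.88 to 0.071 with the endothelial covariate and 0.68 with both libraries left out, and ranged from -1.22 to 0.53 with 1 library left out. That of Cd48 ranged from -1.06 to 0.50, and that of Slamf1 was -0.68 with Xist as a covariate. No transcript share passed the threshold, but 1 did as a share of estimated counts (Procr-201), and 0 to 3 did with 1 library left out, 1 without KO 15409 and 3 without WT 15418. The difference in the share of Pdzk1ip1-204 ranged from -8.78 to 1.56 percentage points. Of the 9 neighbouring pairs in the order of TPM levels, 7 to 9 were kept with 1 library left out. The values of the gene lists and of the Kit ratio with 1 library left out were added after seeing the data. The cause of these changes was not tested, except that the stricter threshold itself lowers the calls. No paired analysis was possible because the labels give no litter and the groups share no replicate numbers. Differences between litters were therefore not modelled. The smallest adjusted p over all genes was 0.0743, so each call at 0.1 lies close to the threshold, and the 5 to 259 counts of Cd48 in KO limit its precision.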
